A study of Danio rerio with 6 samples.

Results

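The genes of DNA replication were followed in the adult zebrafish retina with and without a working samd7 gene. They were taken by symbol alone. Their names begin with those of the origin, helicase, clamp, polymerase, nucleotide, chromatin copying and S phase cyclin genes. The rule used no measured value, but it was chosen with earlier results of these data known. Counts over the members are therefore a description, and no test was run over them as a set. The rule found 59 of the 14781 genes in the deposited table, of which 55 had a level high enough to be tested. It also took in uhrf1bp1l by its prefix, a gene named for its relation to a uhrf1 binding protein and related to lipid transfer proteins, not to replication factors.

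The study compared the retina of 3 wild-type zebrafish with that of 3 samd7-/- zebrafish, homozygous for the allele stl888. All were males of 3 months, raised from crosses of heterozygous parents, and no transgene or treatment is named. Each library held the RNA of both retinas of 1 fish, so the replicates were separate animals. The mutation is in the germ line and the tissue is the whole neural retina, so every cell carried the allele. The gene samd7 encodes a SAM-domain protein of photoreceptors that works with Polycomb repressors.

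Replication starts at origins bound by the origin recognition complex, where CDC6 and CDT1 load the MCM2 to MCM7 ring before S phase. CDC45 and the GINS complex turn this ring into the moving helicase, and primase, the polymerases, the sliding clamp PCNA and its loader RFC copy both strands while ribonucleotide reductase and thymidine enzymes supply the nucleotides. Most of these genes are transcribed by E2F factors when a cell enters the cycle, and in the fish retina dividing cells are found throughout life at the ciliary margin, among Müller glia and as rod precursors.

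The libraries held 20186266 to 29117026 reads in genes. A normalised read count is the number of reads of a gene divided by the size factor of its library, which the authors computed, and values below are in this unit, with libraries in the order of replicates 1, 2 and 3. Where values are set against each other without further words, wild type comes first and the mutants second. The tissue label was borne out by its markers, with rho at 5.58%, 7.60% and 8.98% of the reads in wild type and 2.18%, 6.90% and 5.97% in the mutants. The samd7 transcript stood at 4196, 4557 and 5186 in wild type and 2471, 5121 and 3642 in the mutants, which overlap and therefore do not check the genotype labels. The replication genes took 0.0654%, 0.0676% and 0.0706% of all reads in wild type and 0.138%, 0.0893% and 0.113% in the mutants. These shares are taken over library totals and do not use the size factors. In normalised reads the 59 genes summed to 16664, 17655 and 18482 in wild type and 26035, 19292 and 23310 in the mutants, a smaller difference.

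Most replication genes lay higher in the mutant retinas, while few passed the test one by one. Of the 55 tested, rrm2, mcm2 and top2a rose and rrm2b fell (limma on log2(value + 1), adjusted over 11335 genes, threshold 0.05). That is 3 of 55 higher, where 0.829% of all genes tested were called higher, and 1 of 55 lower, where 1.78% were called lower. The genotypes were apart, with the mutants higher, in 33 of the 55, against 13.3% of all genes tested, and with the mutants lower in 1, against 14.8%. The log2 change, mutant minus wild type, was above 0 for 49 of 55, against 51.6% of all genes, with a median of 0.83 where that of all genes was 0.013. Of the 55, cdc45, chaf1b, pole and tyms had a wild-type library under 10 and were tested only with the help of mutant libraries. The 51 others had a median of 0.77 with 45 above 0, and the mutants were above wild type without overlap in 31. Both chaf1b and tyms are among the 33 above. They are also among the members below called higher by DESeq2 or at an unadjusted p under 0.05. Those counts are therefore a description. In bulk tissue, more cells of a type and more RNA per cell cannot be told apart.

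The number of calls differed between tests. An unadjusted p under 0.05 was reached by 33 members upward, against 9.38% of all genes, and by 1 downward, against 11.6%. The quasi-likelihood test of edgeR called 3 higher and 1 lower, against 0.812% and 1.44% of all genes. DESeq2 called 26 higher and 1 lower, against 4.14% and 6.63% of all genes. The authors' deposited table held the same 27 members under an adjusted p of 0.05, 26 higher and 1 lower, against 3.88% and 6.3% of its genes. Without mutant replicate 2, limma called 10 members higher, among 98 of all 11239 genes tested, and without wild-type replicate 1 it called 1, among 130 of 11250. Without replicate 2 or 3 of wild type, or 1 or 3 of the mutants, it called 0 members, where all genes called higher numbered 6, 17, 8 and 4. With library totals as the scaling in place of size factors, 33 members were called higher and 0 lower, among 1995 and 141 of all 11354 genes tested. Under that scaling 93.4% of all calls were higher in place of 31.8%, and the median of all genes moved to 0.36. Members above the median of all genes numbered 49 under either scaling.

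**Figure D1:**
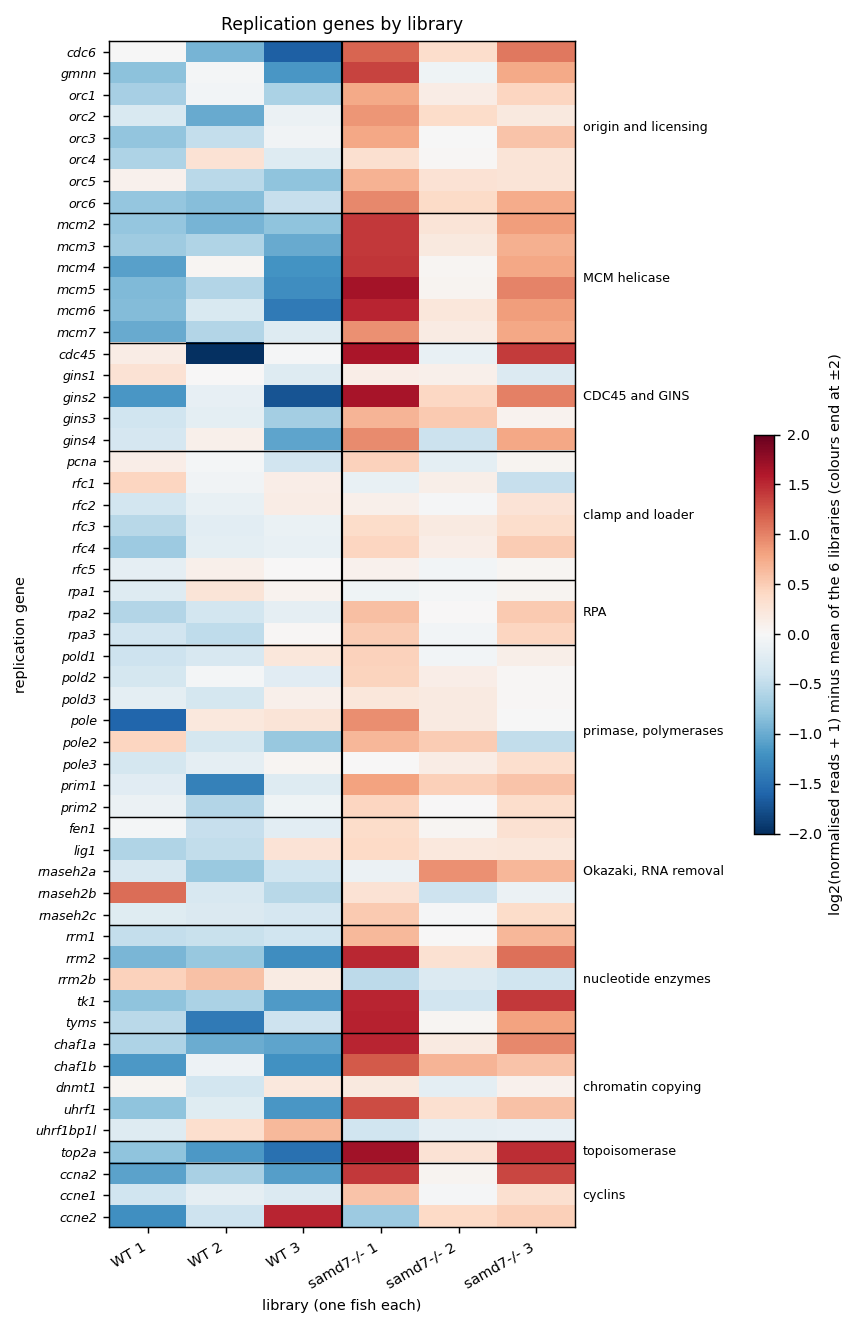
Levels of the 55 tested replication genes in each library as log2(normalised reads + 1) minus the mean of the 6 libraries, with wild type left of the vertical line and samd7-/- right, and genes grouped by role. The mcm rows, top2a, rrm2 and chaf1a are darkest in mutant replicate 1 and palest among the mutants in replicate 2, while rrm2b runs the opposite way.

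**Figure D2:**
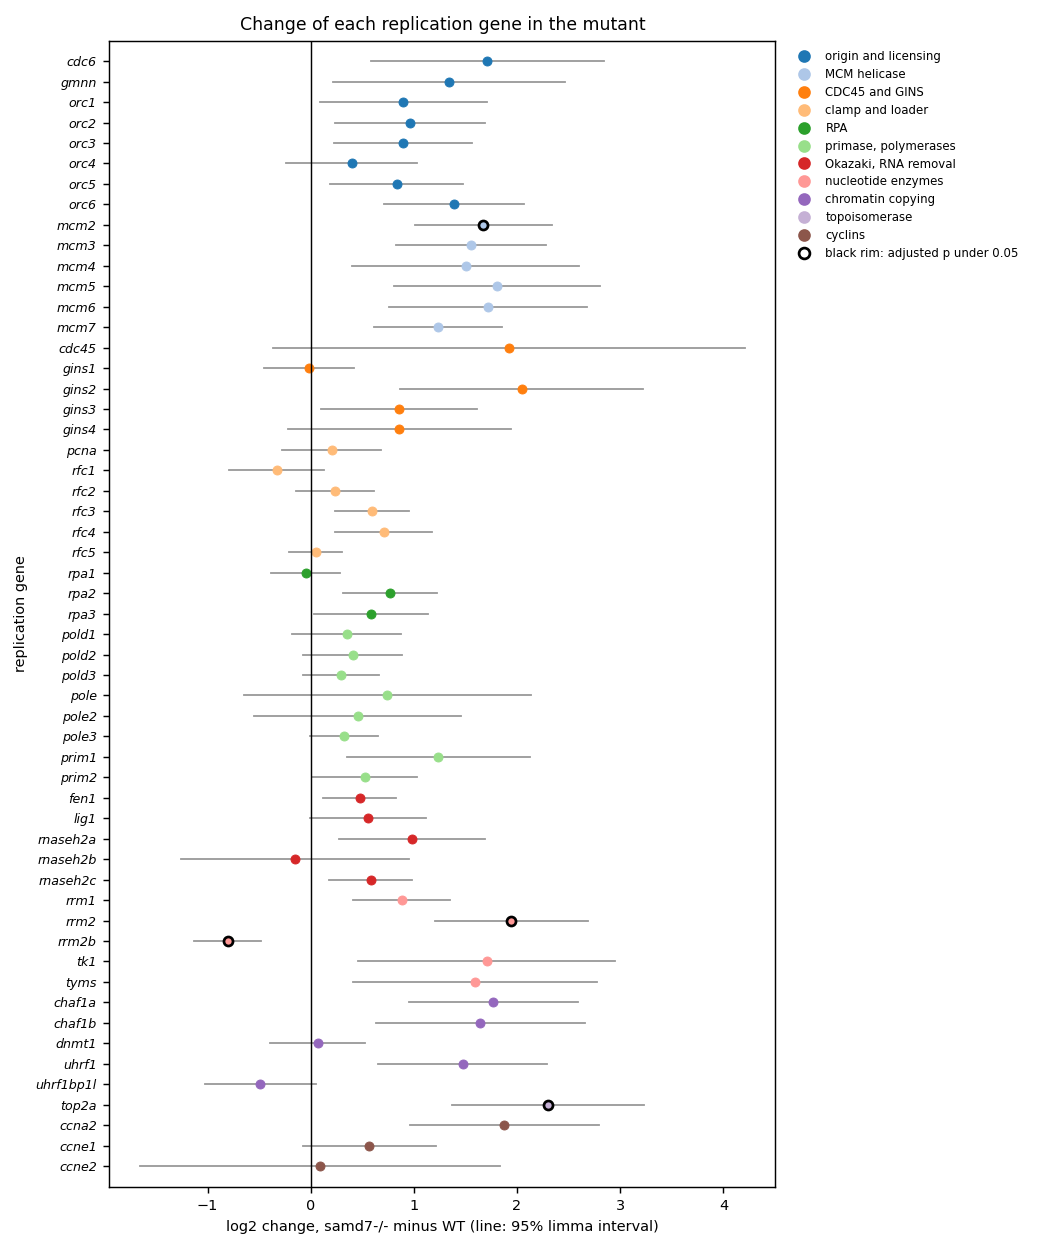
Log2 change of each tested replication gene, samd7-/- minus WT, with its 95% interval from limma, coloured by role. Black rims mark rrm2, mcm2, top2a and rrm2b, and the intervals of 33 genes lie above 0.

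Among the genes that mark and license origins, no member passed limma or edgeR, while 7 of 8 had an unadjusted p under 0.05 and DESeq2 called orc6, cdc6, orc3 and orc2. For this and the role groups below, 9.38% of all genes tested had an unadjusted p under 0.05 upward. DESeq2 called 4.14% of all genes higher. The smallest subunit of the origin recognition complex, orc6, held 21.9, 20.9 and 27.6 normalised reads in wild type and 75.6, 50.2 and 64.3 in the mutants. The loader cdc6 was at 34.1, 17.4 and 10.3 in wild-type fish and 77.5, 43.9 and 71.9 in mutant fish. The genotypes did not overlap for either gene, with log2 changes of 1.39 (SE 0.28, adjusted p = 0.0568) and 1.71 (SE 0.48, adjusted p = 0.109). Among the other subunits, orc3 was at 81.4, 101 and 134 against 243, 140.2 and 211, and orc2 at 81.4, 49.8 and 93.0 against 187, 131 and 116. The subunit orc1 was at 15.8, 24.3 and 16.1 against 43.9, 28.2 and 34.7, and orc5 at 151, 97.3 and 80.4 against 231, 173 and 169. The groups did not overlap for orc1, orc2, orc3, orc5 and orc6. They overlapped for orc4, at 65.6, 123 and 83.8 against 126, 103 and 120.2, whose 95% interval of the log2 change ran from -0.24 to 1.03. Geminin, gmnn, which blocks a second round of licensing by binding CDT1, ranged over 19.3, 33.6 and 14.9 in wild type and 89.6, 32.4 and 59.2 in mutant fish, and its mutant replicate 2 lay within the wild-type range. The ratio of gmnn to cdc6 reads was 0.564, 1.93 and 1.44 in wild type and 1.16, 0.738 and 0.824 in mutant fish, with overlap.

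The subunits of the replicative helicase lay higher together. The subunit gene mcm2 rose 3.37-fold, from 173, 155 and 170.0 to 792, 357 and 531 normalised reads, or from 166 ± 9.61 to 559.7 ± 219 (SD, n = 3; log2 change 1.67, SE 0.28, adjusted p = 0.0408). Its partner mcm3 was at 174, 188 and 142 against 765, 329 and 472 (log2 change 1.55, SE 0.31, adjusted p = 0.0540), just above the threshold. The subunits mcm5 and mcm7 were at 63.9, 78.8 and 49.4 against 379, 122 and 235, and at 239.8, 324 and 404 against 915, 543 and 830.2. The subunit mcm6 was at 106, 156 and 72.4 against 556, 226 and 348, and mcm4 at 63.0, 139 and 58.6 against 368, 139 and 233. For all 6 subunits of the ring the mutants lay above wild type, although for mcm4 the highest wild-type fish and the lowest mutant were both at 139. Their log2 changes ran from 1.24 for mcm7 to 1.80 for mcm5, DESeq2 called all 6, and adjusted p in limma ran from 0.0408 to 0.139.

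Summed over the ring, mcm2 to mcm7 held 820, 1041 and 897 normalised reads in wild type and 3775, 1716 and 2649 in the mutants. The share of each of the 6 subunits in this sum overlapped between genotypes. The share of mcm2 was 18.3 ± 3.16% in wild type and 20.6 ± 0.498% in mutant fish (SD, n = 3), that of mcm6 12.0 ± 3.56% and 13.7 ± 0.916%, and that of mcm7 35.2 ± 8.64% and 29.1 ± 4.19%. The gene mcm10, which is not one of the ring subunits, was too low to be tested, with 8, 8 and 7 reads in wild type and 38, 6 and 19 in the mutants. The related genes mcm3l and mcm6l had 13 and 12 reads over the wild-type libraries and 17 and 6 over the mutants, and reads of such relatives may be divided uncertainly between copies.

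Among CDC45 and GINS, which complete the helicase, no member passed limma or edgeR and 2 of 5 had an unadjusted p under 0.05. The GINS subunit gins2 was called by DESeq2 and held 17.5, 35.9 and 11.5 normalised reads in wild type and 129, 54.4 and 82.1 in mutant fish (log2 change 2.04, SE 0.50, adjusted p = 0.0836). Its partner gins1 was at 545, 449 and 373 against 494, 481 and 372. The 95% interval of the log2 change was -0.45 to 0.42 for gins1 and 0.86 to 3.23 for gins2, and the difference between these subunits of one complex was not tested. The other subunits were in between, with gins3 at 21.0, 24.3 and 17.2 against 45.7, 40.8 and 29.6, and gins4 at 64.8, 88.0 and 39.1 against 159.6, 60.7 and 140.5. The helicase activator cdc45 held 18.4, 1.16 and 16.1 against 53.2, 14.6 and 44.9, where the mutants overlap with wild type and the SE of the log2 change was 0.96.

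The clamp and its loader had the lowest median log2 change of the role groups, 0.22. The clamp gene pcna, used as a marker of dividing cells, held 3124, 2769.9 and 2178 normalised reads in wild type and 3919.7, 2485 and 2952 in the mutants. The genotypes overlapped, and the 95% interval of its log2 change, -0.28 to 0.69, does not reach the log2 change of mcm2, 1.67. The mcm2 to pcna ratio of reads was 0.0555, 0.0560 and 0.0781 in wild type and 0.202, 0.144 and 0.180 in mutant fish, without overlap. This ratio restates the values of both genes and was not tested. Of the loader subunits, rfc3 and rfc4 were called by DESeq2, at 238, 301 and 319 against 449.9, 394 and 446 for rfc3 and at 187, 271 and 278 against 416, 338 and 440.1 for rfc4. The large subunit rfc1 was at 558, 394 and 455 against 372, 448 and 300.4, rfc2 at 400.0, 467 and 572 against 551, 508 and 623, and rfc5 at 856, 1047 and 976 against 1036, 936 and 997, all with overlapping groups. Limma and edgeR called 0 of these 6 genes, and 2 had an unadjusted p under 0.05.

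The subunits of RPA, which coats single-stranded DNA in replication and repair, were unlike in their values. The middle subunit rpa2 was at 283, 329 and 374 against 649.7, 431 and 616 normalised reads, without overlap (log2 change 0.77, SE 0.19, adjusted p = 0.0895), and was called by DESeq2. The large subunit rpa1 was at 1870.3, 2662 and 2344 against 2101, 2169 and 2314, with an interval of -0.38 to 0.28. The ratio of rpa2 to rpa1 reads was 0.151, 0.124 and 0.160 in wild type and 0.309, 0.199 and 0.266 in mutant fish, without overlap. It restates the values of both genes and was not tested. The small subunit rpa3 was at 113, 103 and 149 against 211, 141 and 199. Limma and edgeR called 0 of the 3, and 2 had an unadjusted p under 0.05.

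Primase and the leading and lagging strand polymerases had a median log2 change of 0.43. The primase subunit prim1 held 34.1, 15.1 and 33.3 normalised reads in wild type and 70.9, 56.5 and 60.1 in mutant fish (log2 change 1.24, SE 0.37, adjusted p = 0.131) and was the 1 of 8 called by DESeq2. Its partner prim2 was at 137, 98.5 and 140.1 against 199.8, 149 and 189.6, also without overlap. The polymerase delta genes pold1, pold2 and pold3 gave log2 changes of 0.35, 0.41 and 0.29, and of these only pold2, at 82.3, 102 and 89.6 against 144, 115 and 107, had groups that did not overlap. The polymerase epsilon genes pole, pole2 and pole3 gave 0.74, 0.46 and 0.32, all with overlapping groups, with pole3 at 644, 725 and 844 against 821, 905 and 1033 and pold3 at 255, 228 and 311 against 339.8, 331 and 297. The catalytic subunit pole was low, at 7.0, 26.6 and 27.6 against 44.8, 26.2 and 22.9, and the accessory subunit pole2 was at 108, 62.6 and 47.1 against 128, 114 and 56.7. The catalytic subunit of polymerase delta, pold1, was at 228, 244 and 357 against 423, 293 and 332. Limma and edgeR called 0 of the 8 genes, and prim1 and prim2 had an unadjusted p under 0.05.

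Of the enzymes that finish the lagging strand and remove RNA from DNA, none of 5 passed limma or edgeR, and 3 had an unadjusted p under 0.05. The flap endonuclease fen1 held 593, 445 and 527 normalised reads in wild type and 793, 625 and 755 in the mutants, without overlap, and the ligase lig1 held 251, 271 and 461 against 502, 443 and 449, where wild-type replicate 3 lay within the mutants. The catalytic subunit of RNase H2, rnaseh2a, was at 106, 78.8 and 101 against 122, 252 and 212, and rnaseh2c at 219.7, 214 and 206 against 376, 257 and 335. Both were without overlap and called by DESeq2. The third subunit, rnaseh2b, was at 790.3, 289.6 and 246 against 445, 273 and 336, and its sign turned without wild-type replicate 1, which was the highest library (log2 change 0.37 in place of -0.15), and without mutant replicate 2 (0.013). For rnaseh2a it was mutant replicate 1 that was lowest of the mutants, unlike most replication genes.

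The enzymes that make deoxynucleotides showed a reversal between relatives. Ribonucleotide reductase is formed by rrm1 with a small subunit, which in mammals is RRM2 in S phase and RRM2B outside it. The S phase subunit gene rrm2 rose 4.04-fold, from 238, 268 and 189.5 to 1284, 559 and 966 normalised reads, or from 232 ± 39.4 to 936 ± 363 (SD, n = 3; log2 change 1.94, SE 0.31, adjusted p = 0.0388). Its relative rrm2b fell, from 1096, 1199 and 896 to 553, 660.2 and 604, or from 1064 ± 154 to 606 ± 53.8, 1.76-fold (SD, n = 3; log2 change -0.80, SE 0.14, adjusted p = 0.0408). The ratio of rrm2 to rrm2b reads was 0.217, 0.223 and 0.212 in wild type and 2.32, 0.846 and 1.60 in mutant fish. That ratio follows from the values of both genes and was not tested. The large subunit rrm1 was at 246, 251 and 261 against 537, 344 and 547, without overlap (log2 change 0.88, SE 0.20, adjusted p = 0.0703). Gene length enters such a ratio in the same way in each library, so it can be compared between libraries but not read as an amount. The loss of the rrm2b call with library totals as the scaling (adjusted p = 0.0543) came with a log2 change of -0.45, as that scaling shifts the median of all genes to 0.36.

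In thymidine salvage, tk1 did not pass limma or edgeR while tk2 fell. The cytosolic kinase tk1, made in S phase in mammals, held 42.0, 47.5 and 33.3 normalised reads in wild type and 215, 56.5 and 199 in the mutants, and mutant replicate 2 lay just above wild type (log2 change 1.70, SE 0.52, adjusted p = 0.137). The mitochondrial kinase tk2, which is outside the rule and comes from the list of other nucleotide genes, fell from 1235, 1482 and 1201 to 825, 776 and 786 (log2 change -0.71, adjusted p = 0.0360). The ratio of tk1 to tk2 was 0.0340, 0.0321 and 0.0277 in wild type and 0.260, 0.0728 and 0.253 in mutant fish, and was not tested. Thymidylate synthase, tyms, was at 15.8, 8.11 and 17.2 against 70.0, 24.1 and 41.5, without overlap, and was called by DESeq2 as rrm1, rrm2 and tk1 were. Its wild-type replicate 2 was under the filter of 10, so tyms entered the test with the help of the mutants. Its values are given as a description. No read of dut, the dUTPase gene, was counted in any of the 6 libraries, which allows up to 3 reads in each.

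**Figure D3:**
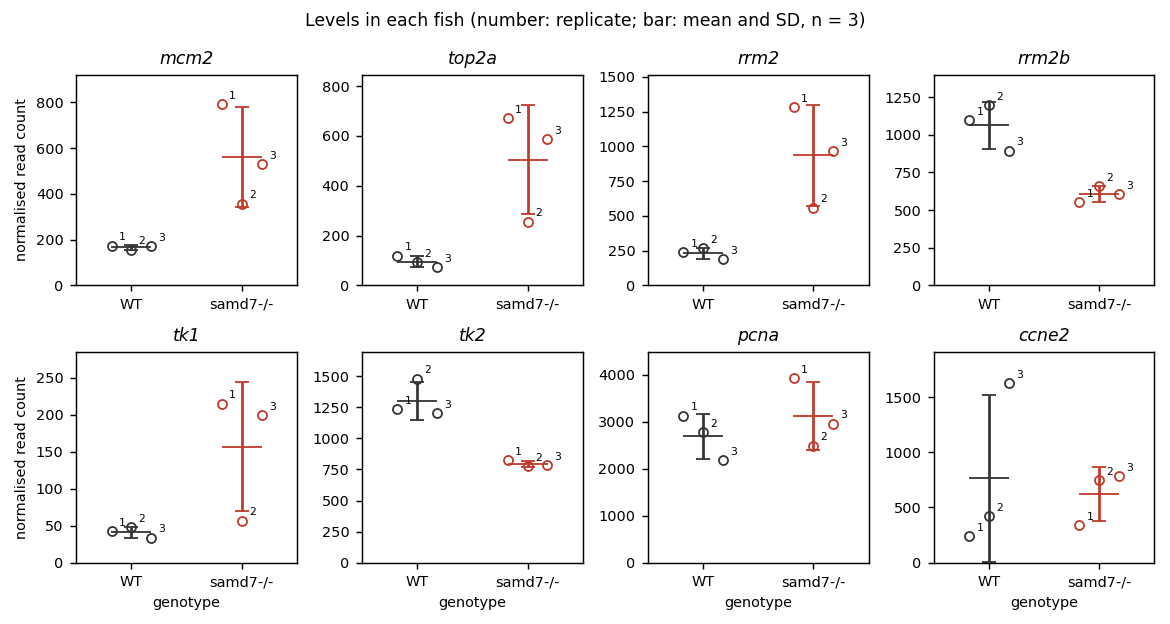
Normalised read counts in each fish for mcm2, top2a, rrm2, rrm2b, tk1, tk2, pcna and ccne2, with mean and SD (n = 3) as bars and the replicate number beside each point; every vertical axis starts at 0. The genotypes are apart for the first 6 genes, in opposite directions for rrm2 and rrm2b, and overlap for pcna and ccne2.

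The topoisomerase gene top2a, whose enzyme untangles sister chromatids, had the highest log2 change of the 55. It rose 5.28-fold, from 119, 93.8 and 73.5 to 670.2, 256 and 586 normalised reads, or from 95.5 ± 22.8 to 504 ± 219 (SD, n = 3; log2 change 2.30, SE 0.39, adjusted p = 0.0408). The call held without wild-type replicate 1 (adjusted p = 0.0481) and without mutant replicate 2 (0.0171), and was lost without replicates 2 (0.137) or 3 (0.0936) of wild type and replicates 1 (0.158) or 3 (0.184) of the mutants. The calls of rrm2 and mcm2 held without mutant replicate 2 (0.0171 and 0.0237) and were lost without each other library (rrm2 0.0570 to 0.178, mcm2 0.0543 to 0.178). That of rrm2b was lost without each of the 6 in turn (0.0529 to 0.183). All 4 kept their direction.

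Among genes that rebuild chromatin behind the fork, chaf1a, chaf1b and uhrf1 lay higher in the mutants without overlap, and dnmt1 overlapped. The large subunit of the histone chaperone CAF-1, chaf1a, held 107, 82.3 and 78.1 normalised reads in wild type against 471, 185 and 319 in mutant fish (log2 change 1.77, SE 0.34, adjusted p = 0.0514), and its partner chaf1b held 9.63, 20.9 and 9.19 against 54.1, 36.6 and 33.9. The reader of half-methylated DNA uhrf1 was at 56.0, 83.4 and 43.6 against 246, 123 and 149. DESeq2 called each of these 3. Only 1 wild-type library of chaf1b was at 10 or more, so this gene entered the test through the mutants, and its values are given as a description. The maintenance methyltransferase dnmt1, which UHRF1 recruits, was at 320.3, 239 and 359.5 against 356, 271 and 328, with an interval of -0.39 to 0.53. The prefix match uhrf1bp1l was at 1029, 1543 and 1929.6 against 932, 1085 and 1096, and was called lower when wild-type replicate 1 was left out (log2 change -0.74, adjusted p = 0.0457). Limma and edgeR called 0 of these 5 genes, and 3 had an unadjusted p under 0.05.

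Of the cyclins, ccna2, which drives S phase and entry into mitosis, was at 63.9, 85.7 and 62.0 against 360.3, 140.2 and 343 normalised reads (log2 change 1.88, SE 0.39, adjusted p = 0.0572). Cyclin E genes, which act at the start of S phase, were less apart, with ccne1 at 30.6, 35.9 and 33.3 against 60.7, 39.8 and 50.8, without overlap but with an interval of -0.08 to 1.21. The gene ccne2 was at 239.8, 422 and 1625 against 339.8, 744 and 783, where wild-type replicate 3 was above every mutant and the interval was -1.66 to 1.84. Limma and edgeR called 0 of the 3, only ccna2 had an unadjusted p under 0.05, and DESeq2 called ccna2.

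The mutant fish differed from one another in the same order for most of these genes. Mutant replicate 1 was the highest mutant for 45 of the 55 genes, against 33.6% of all genes tested, and mutant replicate 2 the lowest for 39, against 32.9%. Relative to the mean of the 6 libraries, the tested replication genes stood on average at -0.45, -0.41 and -0.44 on the log2 scale in wild type and at 0.72, 0.12 and 0.46 in the mutants. The 6 mcm genes stood at -0.89, -0.49 and -0.99 and at 1.39, 0.16 and 0.82, and the 6 orc genes at -0.51, -0.44 and -0.39 and at 0.73, 0.20 and 0.41. The mutant with the least rho, replicate 1, was thus the one with the highest level of replication genes, and the one with the most rho, replicate 2, had the lowest. The photoreceptor marker list stood at -0.99, -0.23 and -0.75 in these mutants and at 0.76, 0.61 and 0.61 in wild type. Its 17 tested genes summed to 2953167 to 3672416 normalised reads in wild type and 986537 to 2381913 in the mutants, and 1 had a log2 change above 0. The gene rho alone averaged 1917730 of a mean sum of 3310257 in wild type and 1043512 of 1760001 in the mutants. Of the 17, 3 fell by limma and by edgeR, DESeq2 called 8 lower, and 8 had an unadjusted p under 0.05 downward and 0 upward. Over all genes tested the downward shares were 1.78% by limma, 1.44% by edgeR, 6.63% by DESeq2 and 11.6% at an unadjusted p under 0.05. The part of the photoreceptor list in the result was not tested.

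Genes outside the rule that work with the fork were read from lists made up of known partners. Over all genes tested, limma called 0.829% higher and 1.78% lower, edgeR 0.812% and 1.44%, and DESeq2 4.14% and 6.63%. An unadjusted p under 0.05 was reached upward by 9.38% and downward by 11.6%, and 51.6% had a log2 change above 0. The counts of each list below stand beside these shares. Genes that entered the test through the mutants stay in these counts, which are a description. Of 20 tested fork partners, 0 passed limma or edgeR, 9 had an unadjusted p under 0.05, all upward, and DESeq2 called 6 higher, with a median log2 change of 0.57. The helicase pif1 was at 14.9, 12.7 and 8.04 against 47.6, 28.2 and 53.3. Next came cdc7, the kinase that fires origins, at 6.13, 6.95 and 8.04 against 42.0, 12.6 and 39.8 normalised reads, and the fork protein wdhd1 at 20.1, 41.7 and 20.7 against 85.9, 54.4 and 84.6. All 3 wild-type values of cdc7 and 1 of pif1 were under the filter of 10, so these genes entered the test through the mutants, and their values are given as a description. Both stay in the counts and the median of the fork partner list, which are a description as well. Of 15 checkpoint and S phase kinase genes 13 had a log2 change above 0, with a median of 0.66. An unadjusted p under 0.05 was reached by 7 upward and 1 downward, and DESeq2 called 5 higher and 1 lower. Limma and edgeR each called 1 higher and 0 lower. By limma wee1, which restrains CDK1, rose from 151, 209.7 and 209 to 372, 377 and 355 (log2 change 0.97, adjusted p = 0.0408). The S phase kinase cdk2 was at 70.9, 53.3 and 47.1 against 235, 93.1 and 222, and fzr1a, an activator of the anaphase-promoting complex in G1, at 1785, 2084 and 1859.5 against 1444, 1352 and 1454, neither past limma's threshold (adjusted p = 0.0856 and 0.0672). The E2F and pocket protein list of 15 had a median of 0.12, with 3 genes at an unadjusted p under 0.05 upward and 2 downward and 2 called higher by DESeq2, and tfdp2, a dimer partner of E2F, rose from 415, 533 and 588 to 1301, 836 and 1169.6 (2.15-fold, adjusted p = 0.0462).

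Of 21 histone and chromatin assembly genes, hmgn2, a nucleosome-binding protein, rose from 5551, 5893 and 4669 to 19854, 9816 and 17189 normalised reads (log2 change 1.48, adjusted p = 0.0442). In that list edgeR called 1 higher and DESeq2 5, 8 had an unadjusted p under 0.05 upward and 0 downward, and the median was 0.31. Of 30 repair genes 0 passed limma or edgeR, and the median was 0.26. An unadjusted p under 0.05 was reached by 9 upward and 1 downward, against 9.38% and 11.6% of all genes. DESeq2 called 2 higher, against 4.14% of all genes. The 29 other nucleotide genes had a median of -0.0036, and DESeq2 called 3 of them higher and 3 lower. An unadjusted p under 0.05 was reached by 6 upward and 4 downward. Limma called 0 higher and 2 lower, as many as edgeR. The calls of limma were tk2 and ppat, the entry enzyme of purine synthesis, which fell from 1197, 703 and 662 to 154, 273 and 128 (log2 change -2.22, adjusted p = 0.0388). The later purine enzymes paics and atic had log2 changes of 0.49 and 0.64 (adjusted p = 0.0988 and 0.107). Of 46 mitosis genes 44 had a log2 change above 0, against 51.6% of all genes, and the median was 1.80. Any mitosis gene with a wild-type library under 10 entered the test with the help of the mutants, and such genes were not counted apart. The median and the counts of this list are therefore a description. Limma called 15 of the 46 higher, against 0.829% of all genes, edgeR 14, against 0.812%, and DESeq2 34, against 4.14%. Among them the kinase cdk1 rose from 76.1, 75.3 and 57.4 to 423, 197 and 368 (adjusted p = 0.0303) and the condensin subunit ncapd3 from 39.4, 40.5 and 28.7 to 141, 108 and 138 (adjusted p = 0.0244). The list stood at 1.14, 0.24 and 0.94 in the mutants, in the same order as the replication genes.

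**Figure D4:**
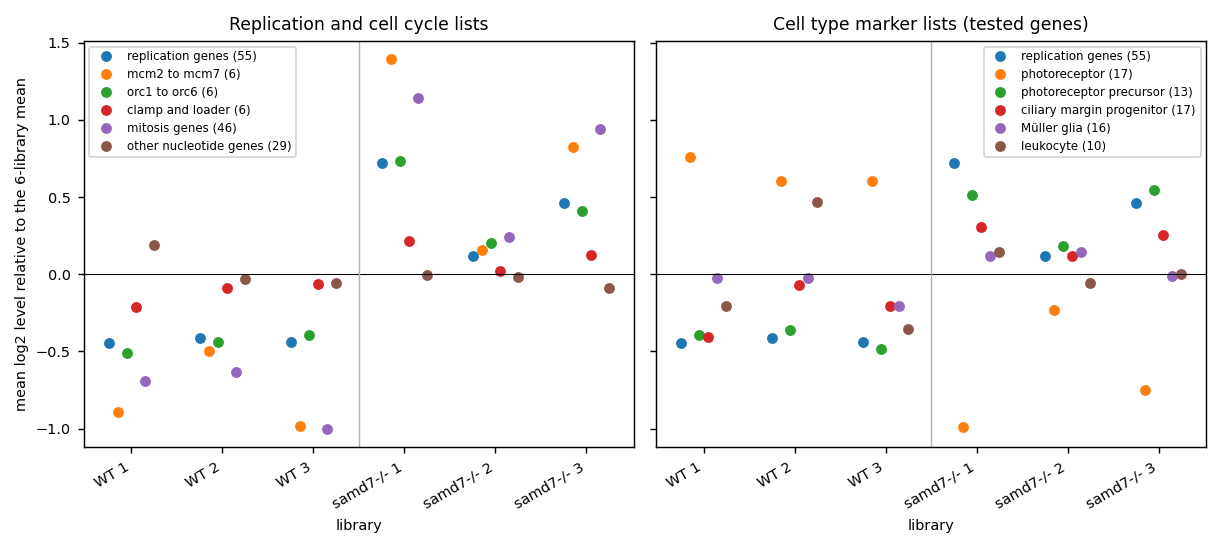
Mean log2 level of each gene list in each library relative to the mean of the 6 libraries, with the number of tested genes in brackets; left, replication and cell cycle lists, right, cell type markers. Points of 1 library are side by side, wild type is left of the grey line, and the replication and mitosis lists are highest in mutant replicate 1 and lowest of the mutants in replicate 2.

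Markers of the cells that could hold the replication RNA were set beside it. Over all genes tested, limma called 0.829% higher and 1.78% lower, and DESeq2 4.14% and 6.63%. An unadjusted p under 0.05 was reached upward by 9.38% and downward by 11.6%. Of 13 photoreceptor precursor markers 4 rose, namely insm1a, sox11b, ascl1a and prdm1a, and nrl fell, and the list stood at -0.39, -0.36 and -0.49 in wild type and 0.51, 0.18 and 0.54 in the mutants. DESeq2 called 5 of them higher and 2 lower, and 7 had an unadjusted p under 0.05 upward and 2 downward. Of 17 markers of ciliary margin progenitors fabp11a rose, and the list stood at -0.41, -0.07 and -0.20 and at 0.31, 0.12 and 0.25. DESeq2 called 4 of these higher and 0 lower, and 9 had an unadjusted p under 0.05 upward and 1 downward. Of 16 Müller glia markers icn rose, with the list at -0.03, -0.03 and -0.20 and at 0.12, 0.14 and -0.01, and DESeq2 called 3 higher, as many as had an unadjusted p under 0.05 upward. Summed over each list, precursor markers held 43618 to 114667 normalised reads in wild type and 62298 to 107399 in the mutants, ciliary margin markers 55981 to 92549 and 79513 to 92136, and Müller glia markers 308042 to 325491 and 333014 to 365759. Single genes made up much of these sums. In wild type neurod1 averaged 57014 of a mean precursor sum of 70777, and rx1 41799 of 78641 for the ciliary margin. For Müller glia, glula averaged 155043 of 314940. These sums therefore say little of the low markers. Limma, edgeR and DESeq2 called 0 of 10 leukocyte markers, 1 of which had an unadjusted p under 0.05, and the list overlapped between genotypes, at -0.20, 0.47 and -0.36 and at 0.14, -0.05 and 0.00. For pigment epithelium, endothelium, oligodendrocyte and erythrocyte markers the 3 tools also called 0 genes, and 0 had an unadjusted p under 0.05, and olig1 of the oligodendrocyte list was at 0 in all libraries. The part of the precursor and progenitor markers in the replication result was not tested.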

How the data were processed

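RNA from the retinas of 3 wild-type and 3 samd7-/- fish was sequenced as paired reads of 150 bp, per the labels' protocols. Tools named in the submitters' processing notes are STAR 2.7.2b, HTSeq 0.9.1, Trim Galore 0.6.1, R 4.1.3 and DESeq2 1.34.0, and the build is danRer10. Strand setting and annotation: not given in the sources used here, so reads of antisense genes cannot be told apart. As deposited, the signal of a gene is its read count over the size factor of the library, computed by the authors, and 100% were whole reads within a tolerance of 0.001 reads. Log2 fold changes and adjusted p-values were deposited by the authors as well, per the file headers, and were only counted here.

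Groups follow the genotype labels. Values as log2(value + 1) were tested in R 4.3.3 by limma 3.58.1, with trended and robust variances, for genes with at least 10 in at least 3 libraries, adjusted by Benjamini-Hochberg at a threshold of 0.05. A fold change on this scale understates that of low genes. Alternatives were edgeR 4.0.16 and DESeq2 1.42.0 on the recovered reads, other scalings, filters and pseudocounts, a replicate block and leaving out each library, and the fits were tested on simulated data. List levels are means over tested genes of log2(value + 1) minus the mean of the 6 libraries.

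Members, gene lists and tests were chosen with earlier results of these data known. The rule for values in every library took members past the threshold and, in each role group, up to 4 members with the smallest p and the one with the smallest change, and the text shows the other tested members as well. Other lists are shown by some of their 4 genes of smallest p. Sequences were not used here.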

Additional observations from a re-analysis of the deposited data

How the results depend on the processing

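TMM scaling, a pseudocount of 0.1 or 10, a filter of 50 in 3 libraries and edgeR gave 3 members called higher and 1 lower, as did the fit reported above, and no filter on low values gave 4 and 1. Of all 11335 genes tested, 92 were called higher and 190 lower with TMM scaling and 92 and 163 with edgeR. The counts were 89 and 195 with a pseudocount of 0.1 and 100 and 212 with 10. With the filter of 50 they were 91 and 213 of 9812 genes, and with no filter 95 and 195 of 13744. With library totals as the scaling 33 members were called higher and 0 lower, and 1995 of all 11354 genes were called higher and 141 lower. The members' median log2 change was then 1.18 in place of 0.83. Without the variance trend limma called 0 members in either direction, with 8 of all genes higher and 22 lower. DESeq2 called 26 members higher, with 469 of all genes higher and 751 lower. The cause of these differences was not tested. With the replicate number as a block (replicate block) 3 members were called higher and 1 lower, with 81 and 208 of all genes, rrm2 being lost (adjusted p = 0.0537) and chaf1a gained (0.0333). The correlations of the deviations of same-numbered fish were 0.19, -0.14 and 0.23 for replicates 1, 2 and 3, and whether these fish were paired was not tested further. Leaving out each library in turn gave 0 to 10 members higher and 0 to 1 lower, 4 to 130 of all genes higher and 11 to 236 lower, and a median of 0.67 to 0.84.

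The sign of the log2 change turned for 7 members, none of them past the threshold. For ccne2 it was -0.27 with edgeR, -0.29 with DESeq2 and -0.51 to 0.87 over the libraries left out. With library totals it was 0.33 for gins1, 0.018 for rfc1, 0.20 for rnaseh2b and 0.30 for rpa1. Over the libraries left out it ranged from -0.10 to 0.19 for dnmt1, -0.15 to 0.12 for gins1, -0.032 to 0.11 for rfc5, -0.47 to 0.37 for rnaseh2b and -0.19 to 0.067 for rpa1. The levels of cdc45, chaf1b, pole and tyms, each with a wild-type library under 10 normalised reads, are limited by counting error.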
